A study of Mus musculus with 5 samples.

Results

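NEUROD2 is a transcription factor of the basic helix-loop-helix family that is made in newly born excitatory neurons of the cerebral cortex. Factors of this family bind DNA in pairs at a short sequence, the E-box, written CANNTG, and the 2 central letters differ between family members. The regions described here are the weak ChIP-Seq peaks that were seen with a single NEUROD2 antibody, antibody 1. With 1 library, binding of NEUROD2 and other enrichment by that antibody cannot be told apart. They were chosen by measured values, namely a peak score under 100 and an absence of overlap: not 1 base of the region lies in a peak of antibody 2 or antibody 3. There were 13130 such regions on chromosomes 1 to 19, X and Y. They made up 25.3% of the 51837 antibody 1 peaks on those chromosomes, 72.9% of the 18014 antibody 1 peaks with a score under 100, and 13.9% of the 94621 peaks of all 3 antibodies.

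The study immunoprecipitated chromatin from the dissected cerebral cortex of BALB/c embryos at E14.5 and sequenced the recovered DNA (ChIP-Seq). Antibodies ab168932 (antibody 1), ab104430 (antibody 2) and ab109406 (antibody 3) were used against NEUROD2, and antibodies to GFP, a protein these embryos do not make, gave the control libraries. No genotype or treatment other than strain was given, so that all libraries share the same kind of tissue, and each was made from pooled embryos of several mothers. Each antibody has 1 library, so every interval below covers counting error over regions of that library and not the spread between animals.

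The files name the peak caller, MACS, but not the unit of the score. It is read here by the convention of that program as −10 times the log10 of the p-value of the region, and 50 was the lowest score among the antibody 1 peaks, the value that the study's p-value cutoff has on this scale. Peaks with a score under 100 are called weak and the others strong. An antibody 1 peak is called alone where no peak of the other antibodies touched it, and shared otherwise. Antibody 1 is a mouse antibody and its peaks were called against the library of a mouse GFP antibody, whereas antibodies 2 and 3 were rabbit antibodies called against a rabbit GFP antibody. Antibody and control library thus cannot be told apart where peaks of antibody 1 alone are compared with those of antibody 2, or in what counts as alone. The weak alone peaks were compared with the 4884 weak shared peaks of the same library, which cover the same range of scores, with the 5695 strong alone peaks, and with the 2465 weak peaks of antibody 2 that no other antibody touched. The 28128 strong shared peaks and the genome itself gave further reference levels.

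Because score and overlap chose these regions, their scores are a description only. The weak alone peaks had a median score of 66.1, with quartiles of 57.2 and 79.2. Their median width was 524 bp, and together they covered 7.74 Mb. Weak shared peaks had a median score of 74.6 and a median width of 583 bp, so the regions seen with antibody 1 alone lay lower and were narrower within the same score range. Strong alone peaks had a median score of 135 and a median width of 676 bp. Of the antibody 1 peaks with a score from 50 to below 60, 82.2% were alone, and of those from 90 to below 100, 58.9% were.

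The edges of the rule can be read from single regions. The 3 weak alone peaks with the highest scores all stood at 99.99. They lay on chromosome 1 (chr1:56239663-56240208), at the start of Casc4 on chromosome 2 (chr2:121866454-121867743), and near Lsm10 on chromosome 4 (chr4:126099665-126100457). The first alone peaks beyond the limit stood at 100 and lay in an intron of Slc35f4, near Shisal1 and at the start of Thtpa. On the overlap edge, a weak alone peak in an intron of Acsl6 on chromosome 11 was separated from another antibody's peak by 1 bp, and weak alone peaks in introns of Ephb2 and Mafk by 2 bp. The weak shared peaks with the least overlap had 2 bases in common with another antibody's peak in an intron of Chrnb2 and 4 in an intron of Auts2.

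Sequences are shown first for the members with the most E-boxes. The study's extended E-box was CA, then G or T, then C or A, then TG, then G or T, read on either strand. The following 200 bp windows, centred on the peak midpoint, hold the largest numbers of distinct extended E-boxes. All are read 5′ to 3′ from the plus strand of the GRCm38.p6 reference (mm10 coordinates, strain C57BL/6J, not BALB/c), and capitals mark the extended E-boxes.
Tsnaxip1 intron, chr8:105833824-105834023: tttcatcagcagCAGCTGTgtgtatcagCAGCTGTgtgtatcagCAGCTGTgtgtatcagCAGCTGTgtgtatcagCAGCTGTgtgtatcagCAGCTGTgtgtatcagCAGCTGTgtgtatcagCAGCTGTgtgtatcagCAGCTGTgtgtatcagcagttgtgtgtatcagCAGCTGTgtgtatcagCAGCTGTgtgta
Jade1 intron, chr3:41595143-41595342: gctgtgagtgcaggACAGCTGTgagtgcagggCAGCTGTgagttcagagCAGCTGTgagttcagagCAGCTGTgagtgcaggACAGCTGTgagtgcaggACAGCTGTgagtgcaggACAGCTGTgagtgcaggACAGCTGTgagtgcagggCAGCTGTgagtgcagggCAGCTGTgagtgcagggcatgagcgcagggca
Intergenic, nearest coding gene Ier5l, chr2:30449750-30449949: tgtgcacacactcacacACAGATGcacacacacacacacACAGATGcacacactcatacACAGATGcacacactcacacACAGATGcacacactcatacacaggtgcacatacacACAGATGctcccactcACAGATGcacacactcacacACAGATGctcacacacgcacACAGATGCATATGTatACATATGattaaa
Intergenic, nearest coding gene Ucma, chr2:4951160-4951359: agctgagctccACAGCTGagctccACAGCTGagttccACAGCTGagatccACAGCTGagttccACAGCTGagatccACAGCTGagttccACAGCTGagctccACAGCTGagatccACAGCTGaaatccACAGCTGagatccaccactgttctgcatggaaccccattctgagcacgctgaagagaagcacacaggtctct
Wwox intron, chr8:114747280-114747479: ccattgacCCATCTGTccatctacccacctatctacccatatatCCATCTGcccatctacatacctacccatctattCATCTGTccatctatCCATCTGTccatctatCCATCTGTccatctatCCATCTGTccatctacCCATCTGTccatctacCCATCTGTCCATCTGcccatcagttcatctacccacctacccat

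The Tsnaxip1 window held 11 distinct extended E-boxes, those of Jade1, Ier5l and Ucma 10 each, and that of Wwox 9. In all of them the E-box recurs as part of a short unit repeated in tandem. Their peak scores ran from 51.23 near Ucma to 97.22 in Tsnaxip1, and none had a peak of another antibody closer than the 3025 bp measured for Wwox. Windows of this kind were rare: 45 of the 13130 regions, or 0.343%, had 5 or more distinct extended E-boxes.

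More typical members hold a single E-box near the midpoint. The next 80 bp windows come from the highest-scoring members over 1 kb from any transcription start site (TSS) that hold exactly 1 CANNTG in the central 200 bp, of the form named, close to the midpoint. They were picked after the values were seen, to show the 3 forms discussed below, and capitals mark the CANNTG hexamer.
CAGATG, intergenic, nearest coding gene Fscn1, chr5:142977515-142977594: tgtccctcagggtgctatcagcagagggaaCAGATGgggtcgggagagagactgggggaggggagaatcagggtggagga
CAGCTG, intron, nearest coding gene Gm11011, chr2:169496430-169496509: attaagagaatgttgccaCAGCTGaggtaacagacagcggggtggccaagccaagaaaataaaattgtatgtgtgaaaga
CATATG, intron, nearest coding gene Arl6, chr16:60102371-60102450: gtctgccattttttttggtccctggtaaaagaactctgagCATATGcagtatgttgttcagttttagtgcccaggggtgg

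The corresponding peaks had scores of 99.75, 98.73 and 99.87. The highest-scoring member of the same kind with no CANNTG at all in its central 200 bp lay in an intron, 137146 bp from the start of the nearest coding gene, Tmem178b, with a score of 99.92.
No CANNTG, chr6:40010317-40010516: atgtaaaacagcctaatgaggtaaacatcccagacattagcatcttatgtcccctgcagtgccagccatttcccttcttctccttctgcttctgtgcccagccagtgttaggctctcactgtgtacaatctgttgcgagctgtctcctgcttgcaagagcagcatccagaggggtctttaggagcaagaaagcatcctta

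The first question was whether weak regions seen with antibody 1 alone carry the sequence that NEUROD2 binds. In 60.5% of them an extended E-box was present in the central 200 bp (95% Wilson interval 59.7 to 61.3%), and in 22.3% of 200 bp flanks placed 1000 bp beyond the upstream end of the same peaks. The centre alone held the motif in 6201 regions and the flank alone in 1178 (McNemar's exact test, two-sided, over peaks of 1 library, p at or below 1e-300, the smallest value given). On the downstream side 22.6% of flanks held it, and of all 200 bp windows of the genome 20.9% did. The centre share was above the flank share on each of the 20 chromosomes with at least 10 members, with centre shares from 55.9% to 63.3% and flank shares from 18.8% to 25.5%. The 2 members on chromosome Y were not examined in this way.

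The weak peaks that a further antibody also found were compared next. Among weak shared peaks 60.9% held the extended E-box, a difference of −0.382 percentage points (weak alone minus weak shared, 95% Newcombe interval −1.98 to 1.23). The interval includes 0 and leaves room for a difference of up to about that size in either direction. The classes were not matched for score, and the shares by score are given below. With a score limit of 150 the difference was −1.53 points (interval −2.77 to −0.290) and with a 400 bp window −1.56 points (interval −3.00 to −0.0888), both below 0. Strong shared peaks stood at 60.2%. The classes that differed from the weak alone peaks were the strong alone peaks of the same antibody, at 51.6% (difference 8.90 points, interval 7.36 to 10.4), and the weak alone peaks of antibody 2, at 53.2% (difference 7.29 points, interval 5.15 to 9.43). Thus over all positions, among regions found with antibody 1 alone, the weak ones held the extended E-box more often than the strong ones. The difference was smaller over 1 kb from any TSS (3.55 points) and at coding TSSs (2.16 points, interval −0.370 to 4.64).

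**Figure D1:**
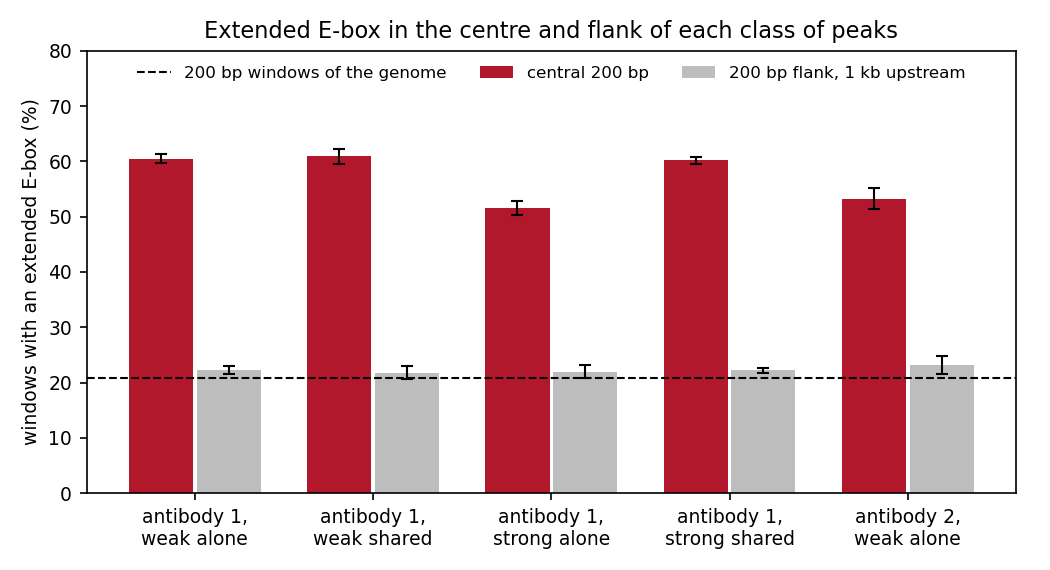
Share of peaks (%) with an extended E-box in the central 200 bp (red) and in a 200 bp flank 1 kb upstream (grey) for 5 classes of peaks, with 95% Wilson intervals as error bars; the dashed line is the share of 200 bp genome windows. The red bars of weak alone (60.5%) and weak shared peaks (60.9%) have overlapping intervals, those of strong alone peaks (51.6%) and antibody 2 weak alone peaks (53.2%) are lower, and all grey bars lie near 22%.

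Numbers of E-boxes per region were then compared. Of the weak alone peaks, 39.5% had no distinct extended E-box in the central window, 39.6% had 1, 16.4% had 2, 3.53% had 3 and 0.929% had 4 or more. At least 2 were found in 20.9% of weak alone peaks, 20.1% of weak shared peaks and 18% of strong alone peaks. The difference from weak shared peaks was 0.759 points (interval −0.579 to 2.07), and that from strong alone peaks was 2.89 points (interval 1.66 to 4.09). Strong shared peaks had at least 2 in 22.3%, which is 1.36 points above the weak alone peaks (weak alone minus strong shared −1.36, interval −2.21 to −0.510).

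E-boxes were concentrated at the midpoint. Within 50 bp upstream of the midpoint there were 264 extended E-boxes per 1000 weak alone peaks, and within 50 bp downstream 258. Their number fell to 181 and 188 in the next 50 bp on each side, and to 56.7 between 450 and 500 bp upstream. Weak shared peaks had 259 and 260.2 per 1000 in the central pair of bins, and strong alone peaks had 223 and 222. Between 150 and 200 bp from the midpoint weak alone peaks had fewer than both, with 69.8 upstream and 69.5 downstream for weak alone peaks, 75.1 and 79.4 for weak shared peaks, and 82.5 and 79.5 for strong alone peaks.

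**Figure D2:**
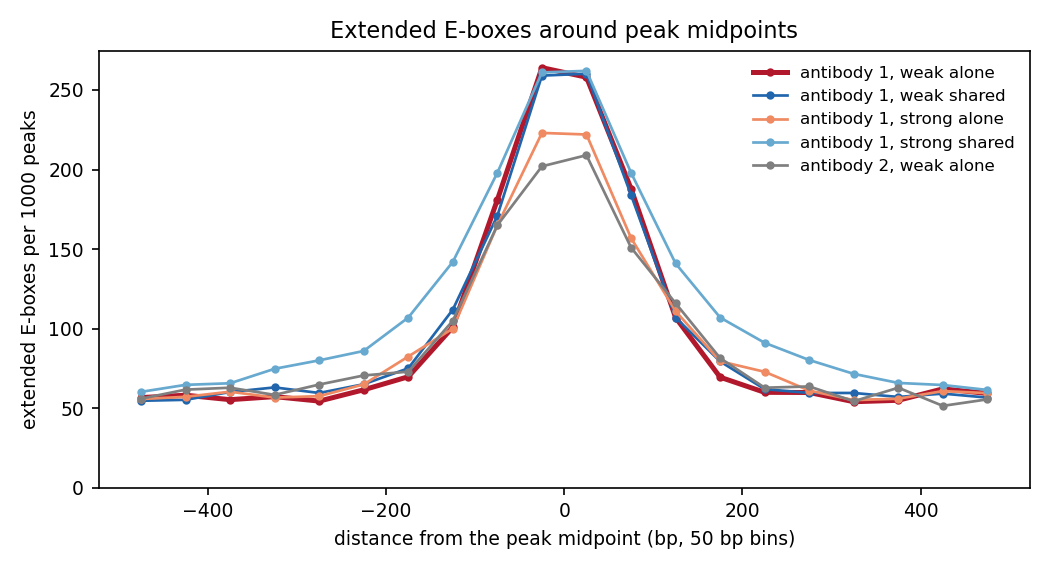
Extended E-boxes per 1000 peaks (vertical axis) in 50 bp bins of distance from the peak midpoint (horizontal axis, bp) for 5 classes of peaks. The thick red line of weak alone peaks peaks at 264 per 1000 in the bin just before the midpoint, beside 259 for weak shared and 223 for strong alone peaks, and between 150 and 200 bp upstream it lies below both, at 69.8 against 75.1 and 82.5.

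The form of the E-box was uneven. CAGATG was the most frequent hexamer, in 42.6% of the central windows against 15.5% of the flanks. CAGCTG was in 28.6% against 9.12%, the steepest ratio at 3.13-fold. CATATG was in 11.5% against 5.92%, and CACCTG, a form bound by other helix-loop-helix factors, in 19.3% against 13.7%. CAATTG, at 2.38% against 2.99%, and CAAGTG, at 11.2% against 12.2%, were less frequent in the centre than in the flank. Any CANNTG at all was in 84.4% of centres and 66.5% of flanks, so a window without any E-box hexamer, like that near Tmem178b shown above, was the less common case.

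The second question was where these regions lie in the genome. Measured from the midpoint to the TSS of the longest transcript of each gene, 15.2% of weak alone peaks were within 1 kb of a TSS of any gene type and 12.3% within 1 kb of a protein-coding TSS. The corresponding shares of known genome bases were 3.86% and 1.56%. Weak shared peaks were within 1 kb of any TSS somewhat more often, in 17.3% (difference −2.07 points, interval −3.31 to −0.863). That difference was −1.17 points with a score limit of 150 and −1.30 where alone meant no other peak within 1000 bp, and it turned to 1.89 (interval −7.95 to 8.08) without the antibody 2 list, which left 72 weak shared peaks. Strong shared peaks had the same 15.2% (difference −0.00671 points, interval −0.745 to 0.743), and antibody 2 weak alone peaks 17.0% (difference −1.75 points, interval −3.40 to −0.188). The largest gap was to the strong alone peaks, at 25.5% (difference −10.3 points, interval −11.6 to −9.06). All 5 classes lay mainly over 1 kb from any TSS, from 74.5% of strong alone peaks to 84.8% of weak alone and strong shared peaks.

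Inside transcripts, 49.3% of the weak alone midpoints lay in introns, 4.89% in 5′ untranslated exons, 4.09% in coding exons, 1.93% in noncoding exons and 0.845% in 3′ untranslated exons, and 39.0% were intergenic. In all, 61.0% lay inside a gene, against 45.3% of known bases. Weak shared peaks had 61.8% inside a gene (difference −0.745 points, interval −2.34 to 0.859). Between 10 and 50 kb from any TSS lay 39.1% of the regions, and over 50 kb away lay 22.5%.

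Promoter and distal members differed in sequence. Of the 1619 weak alone peaks within 1 kb of a coding TSS, 14.9% held the extended E-box in the central 200 bp (interval 13.2 to 16.7%), below the 22.2% of their own flanks. In RefSeq promoter sequences of coding genes on GRCm38.p6, 15.9% of 20150 windows running from 150 bases before the TSS to 50 after held it. In the same windows of genes that have a member within 1 kb it was in 11.3% of 1589 (interval 9.86 to 13.0%), below promoters at large. The median midpoint of the members lies downstream of these windows, as given below. Of the 11133 weak alone peaks over 1 kb from any TSS, 67.3% held it (interval 66.4 to 68.1%), against 22.2% of flanks. The share rose from 64.3% at 1 to 10 kb from a TSS to 68.0% at 10 to 50 kb and 69.1% beyond 50 kb, with overlapping intervals for the last pair. Near the TSS of noncoding genes only, 57.4% of 378 regions held it.

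Within these positions the comparison with other classes changed in part. Over 1 kb from any TSS, weak alone peaks stood at 67.3%, weak shared peaks at 68.0% and strong alone peaks at 63.7%. The difference from strong alone peaks narrowed there to 3.55 points (interval 1.87 to 5.24), and beyond 50 kb it was 0.973 points (interval −2.30 to 4.34). At coding TSSs, weak shared peaks held the extended E-box more often than weak alone peaks, 19% against 14.9% (difference −4.11 points, interval −7.65 to −0.782). Strong shared peaks, level with weak alone peaks over all positions, differed in opposite directions by position. At coding TSSs 23.3% of them held it (weak alone minus strong shared −8.40 points, interval −10.6 to −6.13), and over 1 kb from any TSS 65.8% did (difference 1.41 points, interval 0.346 to 2.46). The gap from antibody 2 weak alone peaks was 7.02 points (interval 4.74 to 9.32) over 1 kb from any TSS.

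**Figure D3:**
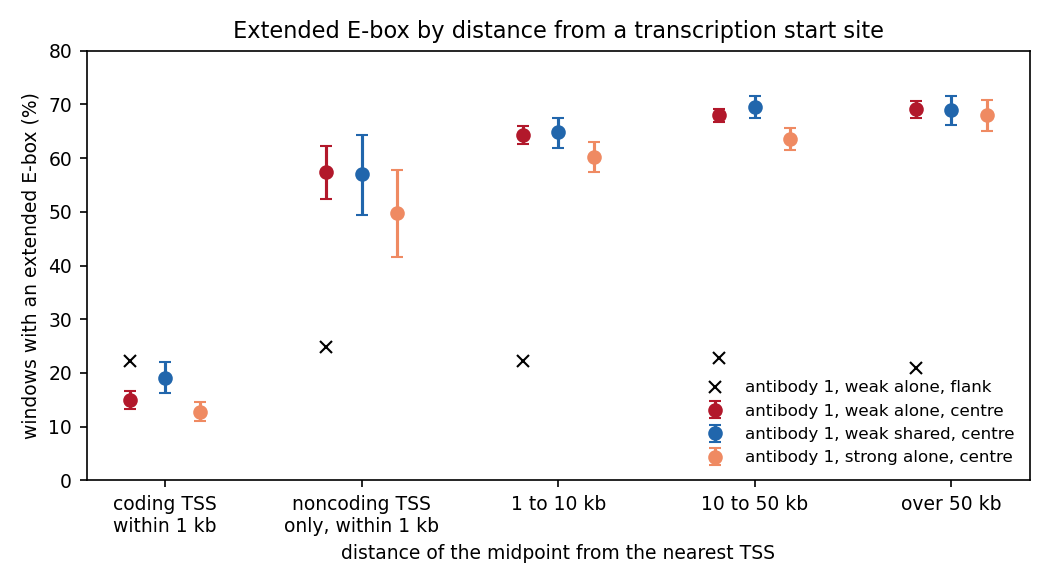
Share of peaks (%) with an extended E-box in the central 200 bp, by distance of the midpoint from the nearest TSS, for weak alone, weak shared and strong alone peaks of antibody 1 with 95% Wilson intervals; crosses are the flanks of weak alone peaks. At coding TSSs the weak alone share (14.9%) lies below its flank (22.2%), and beyond 50 kb it reaches 69.1%.

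Other short motifs also split by position, some opposite to the E-box and some like it. The GC box GGGCGG, bound by Sp and Klf factors, was in 53.6% of weak alone peaks at coding TSSs and in 5.43% of those over 1 kb from any TSS, and the flanks of each held it in 4.26% and 3.09%. In the promoter windows described above it was in 43.9% for all coding genes and in 60.6% (interval 58.2 to 63.0%) for genes with a member within 1 kb. The members' own windows are centred on midpoints that mostly lie downstream of the TSS, so the shares cover different positions. The ETS motif CCGGAAG was in 11.4% of members at coding TSSs against 1.36% of their flanks, and in 1.04% of distal members against 0.683%. The NFI motif TTGGCA, the recognition sequence of one subunit of nuclear factor I proteins, split like the E-box: it was in 21.2% of distal members against 9.88% of flanks, and in 5.56% of promoter members against 8.77%. Each motif was searched on both strands in the central 200 bp, and a match describes letters, not a bound site.

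Further motifs were close to their flanks in distal members. The homeobox core TAATTA was in 6.58% of centres and 6.42% of flanks, and the AP-1 motif TGANTCA in 6.26% and 6.18%. The Sox motif ACAAAG was less frequent in the centre, at 14.9% against 17.2%. In weak shared peaks over 1 kb from any TSS the NFI motif was in 22.9%, and the homeobox core in 7.82% against 6.49% of flanks.

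Base composition moved with position. The central 200 bp of weak alone peaks had a mean GC content of 51.8% ± 9.69 (SD, n = 13130 regions), above the 44.7% of their flanks. At coding TSSs the mean was 67.7%, with an observed over expected CpG ratio of 0.811, and over 1 kb from any TSS it was 49.4%, with a ratio of 0.241. Weak shared peaks had 52.0% (difference −0.248 points, interval −0.560 to 0.0648) and strong alone peaks 55.0% (difference −3.24 points, interval −3.58 to −2.90). Repeats, marked in lower case in the reference, took 10.8% of the central window and 23.9% of the flank, against 36.4% of the genome. This repeat share was 1.49 points above that of weak shared peaks (interval 1.01 to 1.97). In 467 members repeats filled most of the central window, and 70.2% of these held the extended E-box.

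Members at coding TSSs sat mainly on the transcribed side. Of 1619, 1234 (76.2%, interval 74.1 to 78.2%) had their midpoint downstream of the TSS, and the median position was 115 bp into the gene. The share was 74.2% for weak shared peaks and 75.2% for strong alone peaks. These members were wide, with a median width of 942 bp against 499 bp for distal members.

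The 5 highest-scoring members at coding TSSs illustrate this group. They lay at Casc4 (score 99.99, midpoint 129 bp downstream), Ppp4r4 (99.96, 173 bp downstream), Kif13a (99.96, 841 bp upstream), Ap1b1 (99.93, 286 bp downstream) and Gm2431 (99.80, 514 bp downstream). KIF13A is a motor protein that carries cargo along microtubules, and AP1B1 is a subunit of a coat complex that sorts membrane proteins. None of the first 4 held the extended E-box in the central window, and their GC contents ran from 54.5% at Kif13a to 81.5% at Casc4. The fifth, at Gm2431, held 4 distinct extended E-boxes, and 74.5% of its window was marked as repeat.

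Score within the weak range was examined next. The extended E-box was in 62.4% of members with a score from 50 to below 60 (interval 61.0 to 63.9%), in 59.6% from 60, in 59.5% from 70, in 59.0% from 80 and in 59.8% from 90 to below 100 (interval 57.1 to 62.4%). The lowest scores thus did not have the lowest share. Weak shared peaks held it in 61.7%, 62.3%, 62.0%, 61.7% and 56.6% of the same bins, in order. Weak alone peaks were thus lower from 60 to below 90 and higher in the lowest and highest bins, with overlapping intervals. The share within 1 kb of a coding TSS ran from 10.6% (interval 9.73 to 11.5%) in the lowest bin to 15.2% (interval 13.4 to 17.2%) in the highest.

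**Figure D4:**
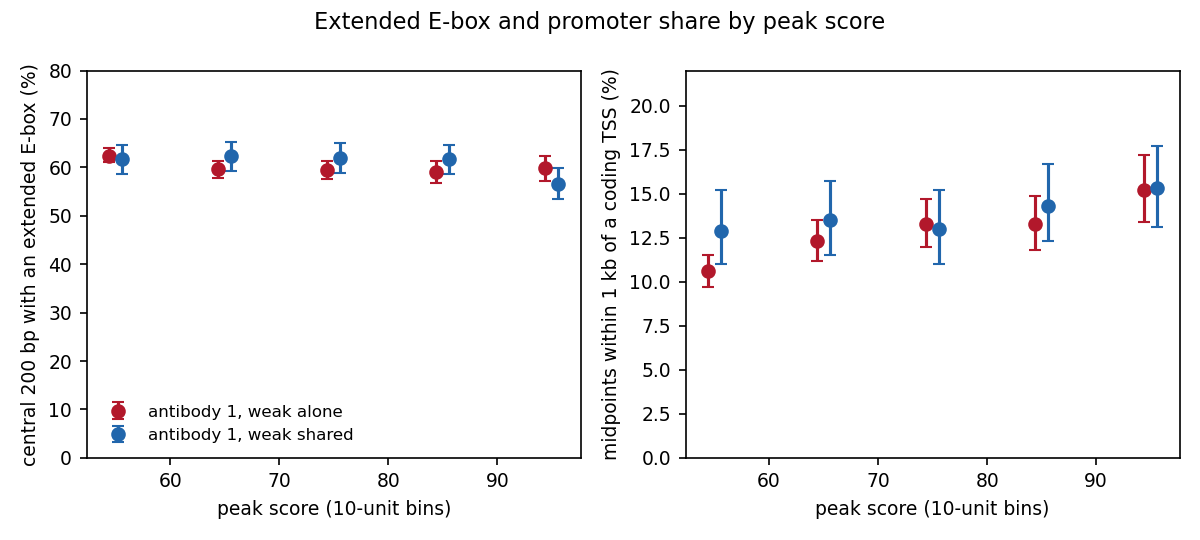
Extended E-box share (left, %) and share of midpoints within 1 kb of a coding TSS (right, %) in 10-unit bins of peak score for weak alone and weak shared peaks of antibody 1, with 95% Wilson intervals. The E-box share of weak alone peaks is 62.4% in the lowest bin and 59.8% in the highest, and their promoter share goes from 10.6% to 15.2%.

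The third question was how the regions lie relative to sites bound with several antibodies. Peaks of at least 2 antibodies were merged into 32261 regions. Of the weak alone midpoints, 40.5% were within 10 kb of such a region, and 19% of known bases were. Weak shared peaks, measured to the nearest other region, gave 40.3% (difference 0.228 points, interval −1.39 to 1.83), and strong alone peaks 40.4%. Strong shared peaks were nearer to another such region, with 46.9% (weak alone minus strong shared −6.42 points, interval −7.44 to −5.40), and antibody 2 weak alone peaks less often, with 37.4% (difference 3.06 points, interval 0.956 to 5.13). At the far end, 8.78% of weak alone peaks were over 100 kb from any such region. The share was 8.19% for weak shared peaks (difference 0.591 points, interval −0.339 to 1.48), 7.46% for strong alone (1.32 points, interval 0.465 to 2.14), 6.50% for strong shared (2.28 points, interval 1.72 to 2.85) and 10.7% for antibody 2 weak alone peaks (−1.89 points, interval −3.25 to −0.628).

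Near misses were a small part of the regions. The median gap to the nearest antibody 2 peak was 13725 bp, and to the nearest antibody 3 peak 77324 bp. A peak of either lay within 100 bp of 157 members and within 1000 bp of 1319, or 10.0%. Members 1 to 100 bp from another antibody's peak held the extended E-box in 56.1% (interval 48.2 to 63.6%), those 1 to 10 kb away in 61.4%, and those over 100 kb away in 62.2% (interval 59.1 to 65.1%). The most isolated regions were therefore not the poorest in the motif. The share at coding TSSs was 4.46% in the closest group and 18.1% in the most distant.

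Along the chromosomes, members numbered 4.21 to 6.49 per Mb of known sequence on the autosomes, 1.5 on X and 0.0227 on Y. The merged regions of several antibodies numbered 10.0 to 17.4, 3.11 and 0.0113 per Mb. Among weak antibody 1 peaks the share found alone lay between 70.6% and 74.6% on every autosome and was 68.5% on X. No other member lay within 10 kb of 10700 members, or 81.5%. The share under even spacing or in other classes was not computed, so this describes the members only. Runs of 3 or more members at most 10 kb apart numbered 150, and the longest held 5.

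At the level of genes, each member was assigned to the coding gene with the closest TSS. Of 21938 coding genes, 6475 (29.5%) had at least 1 member, 1606 (7.32%) had 1 within 1 kb of their TSS, and 1813 (8.26%) had a member but no region of at least 2 antibodies closest to their TSS. With the nearest TSS taken among genes of any type, 4008 coding genes had a member, so the 29.5% and the list counts below hold for assignment among coding genes. Of the 9602 genes with such a region, 48.6% also had a member, and of the 12336 without, 14.7% had one. In total 83.9% of members were assigned to a gene that also had a region of several antibodies. Genes with much sequence around them collect more of any kind of peak, and this was not corrected for.

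The genes with the most members included several large genes of neurons. Celf4, which codes for an RNA-binding protein of neurons, had 20, with 34 regions of several antibodies. Auts2 and Rbfox1, a splicing regulator, had 19 each, with 52 and 46 such regions, and span 1106 and 1468 kb. Kirrel3, a cell adhesion gene, and Tle3, a corepressor, had 17 each. Zfp608 and Tenm4 had 16, and Galnt17, Wwc1 and Gm26897 had 15. The closest TSS is not always that of the gene that holds the region: 12 of the 15 members of Galnt17 lay inside Auts2, and 10 of the 15 of Wwc1 inside Tenm2. All 10 had more regions of several antibodies than members, as did all coding genes together, with 32261 regions and 13130 members. Of the 19 members of Auts2, 13 held the extended E-box, as did 14 of the 19 of Rbfox1 and 13 of the 20 of Celf4. Among all members 60.5% held it, and among those over 1 kb from any TSS 67.3% did.

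Genes with members and no region of several antibodies were found too. Pln, which codes for phospholamban, a regulator of the calcium pump of heart muscle, had 6 members by this rule, but 5 of them lay in introns of Cep85l and the sixth in Slc35f1. The 6 members assigned to Slc22a12 likewise lay in Nrxn2, in 2410152P15Rik or between genes. Creb1, which codes for a transcription factor activated by neuronal activity, had 4 members, all over 100 kb upstream, with scores from 51.08 to 99.74. The other genes among the 10 with the most members of this kind had 4 each: Bahd1, Baz2a, Dlat, Eya4, Kcnmb2, Rmi2 and Rps6ka1. All 4 members of Kcnmb2, a subunit of potassium channels, held the extended E-box and lay over 500 kb from any region of several antibodies, and none of the 4 of Bahd1 held it.

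Gene lists were then counted against the 29.5% of all coding genes. Of 22 transcription factors of cortical layers 19 had a member (86.4%), with 12 for Tshz3, 9 for Bcl11b, 8 for Etv1 and Tle4, and 7 for Sox5. Tbr1, Pou3f1 and Bhlhe22 had none. Every gene of this list had regions of several antibodies, 257 in all against 92 members. Of 67 axon guidance genes 49 had a member (73.1%), led by the semaphorin Sema6d and the plexin Plxna2 with 14 each and the ephrin Efnb2 with 12. Of 21 genes of the Reelin pathway, which guides migrating neurons, 14 had one (66.7%), among them Dab1 with 8 and Reln with 5.

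Lists of other kinds ranged widely. Of 24 radial glia and progenitor genes 18 had a member (75%), and Pax6 had 7 members with 4 regions of several antibodies. Of 30 genes of the neuronal helix-loop-helix family 17 had one (56.7%), with 9 for Tcf4 and 8 for Id2, and Neurod1 and Neurod2 had none beside 9 and 11 regions. Of 27 subpallial and interneuron genes 13 had one (48.1%). The low end was held by olfactory receptors, 14 of 1093 (1.28%), and genes of other tissues, 6 of 40 (15%). The lists differ in gene size and surroundings: the median longest transcript was 82.9 kb for the layer factors and 5.99 kb for olfactory receptors.

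The study tested some genes by quantitative PCR on such chromatin, so these lists are not independent of the data. Of the 15 genes it tested as targets, 10 had a member, led by Bcl11b and Id2, and all 15 had regions of several antibodies. Of the 5 it tested as non-targets, 4 had a member, namely Npy with 3 and Dlx2, Gad1 and Calb2 with 1 each, and 4 of the 5 had regions of several antibodies, 12 in all. The targets had 45 members in all (median 3.00 a gene) and the non-targets 6 (median 1.00). Their median longest transcripts were 46.6 and 6.80 kb. The study's quantitative PCR used antibody 2, whereas members are antibody 1 peaks assigned at any distance from the TSS. No member lay within 1 kb of a TSS in either list, so these counts do not bear on the outcome of that PCR.

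**Figure D5:**
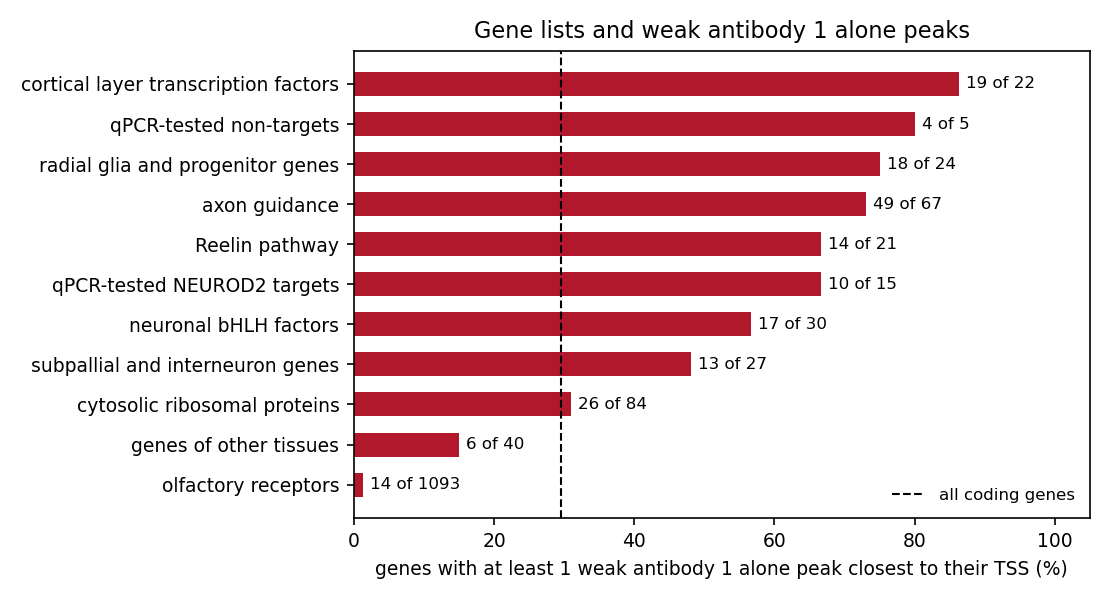
Share of genes in each list (%) that have at least 1 weak antibody 1 alone peak closest to their TSS, with the number of genes beside each bar; the dashed line is the share among all coding genes (29.5%). Cortical layer transcription factors (19 of 22) stand at the top and olfactory receptors (14 of 1093) at the bottom, and 4 of 5 genes tested as non-targets have a member.

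Cytosolic ribosomal protein genes were near all coding genes by closest TSS, with 26 of 84 (31.0%) against 29.5%. At the promoter itself their share was above that of all coding genes. A member lay within 1 kb of the TSS of 13 of 84 cytosolic ribosomal protein genes (15.5%, against 7.32% of all coding genes), which code for parts of the ribosome, or a close relative of one, and are active in every cell. Those with the highest scores were Rps27l (94.3), Rpl13 (87.5), Rpl29 (83.1), Rplp0 (81.9), Rpl41 (80.8), Rplp2 (77.9), Rpl4 (77.3) and Rps3 (76.6). None of these members held the extended E-box, beside 14.9% of all weak alone peaks at coding TSSs. So few members are no result about the motif. Among layer factors 1 of 22 had a member there (4.55%), Otx1 (68.4).

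Axon guidance genes had 5 of 67 with a member at the TSS, which at 7.46% is near the 7.32% of all coding genes. These were Efna2 (98.9), Sema4d (85.0), Ntn4 (83.2), Sema3c (78.2) and Efnb3 (61.5), which code for ligands of growing axons. None of their members held the extended E-box, which is again no result beside the 14.9% of all weak alone peaks at coding TSSs. Progenitor genes had 3 of 24 (12.5%), namely Eomes (75), Ccnd1 (57.1) and Dll3 (50.3), the Reelin pathway had 1 of 21 (4.76%), Akt1 (96.4), and the subpallial list 1 of 27 (3.70%), Ebf1 (67.6). These shares rest on 1 to 5 genes each and were read as no result about the lists. Of these, the member at Dll3, which codes for a Notch ligand, held an extended E-box and lay 44 bp from a peak of another antibody. The helix-loop-helix genes, olfactory receptors, genes of other tissues and both lists tested by quantitative PCR had no member within 1 kb of a TSS.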

How the data were processed

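ChIP-Seq peak lists of 3 NEUROD2 antibodies, 1 library each, were analysed. As the study's methods describe, the authors mapped 50 nt single-end reads to mm10 with Bowtie, removed duplicates and multiply mapped reads, and called peaks per library with MACS at a p-value cutoff of 1e-5, against a mouse GFP antibody for antibody 1 and a rabbit GFP antibody for antibodies 2 and 3. The deposited score carries no unit and was read, by the convention of MACS, as −10 log10 of that p-value. The sequencing yields that the study gives for each library were not used here, and the deposited peak lists hold no read counts or signal. The peaks listed were 51841, 35310 and 7470. GFP libraries entered only as the authors' controls.

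Classes came from score and an overlap of at least 1 bp. Positions used GENCODE M21 longest transcripts, and sequence used GRCm38.p6, which has the mm10 coordinates. Scripts in Python 3.11.15, with scipy 1.17.1 for tests and pandas 2.3.3 for tables, were tested on simulated data. Centre and flank were compared by McNemar's exact test, shares by 95% Newcombe intervals and means by 95% normal intervals. The removal of multiply mapped reads bears on peaks in repeats and near-identical gene copies, and library depth bears on the number of weak peaks.

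The members and gene lists were chosen with earlier results of these data known. Named genes were list genes with a member within 1 kb of their TSS (up to 8 a list, by score), the 10 coding genes with the most members, the 10 with the most members among those without a region of at least 2 antibodies, the 5 members with the most E-boxes, the 5 highest-scoring members at coding TSSs, and the 3 peaks on either side of the score limit. Other genes of the lists were named after their values were seen. Alternatives changed the score limit, the overlap rule, the lists used, the window, the motif, the flank and the transcripts.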

Additional observations from a re-analysis of the deposited data

How the results depend on the processing

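Of 77 recomputed values, 63 were classed as unchanged. Differences were so classed where they kept their direction and their side of the threshold, and counts where they moved by less than a set factor. The unchanged values included the number of regions (9990 to 17942, beside 13130 in the main setting). They also included the excess of the extended E-box in the centre over the flank under every alternative (17.9 points for any CANNTG to 45.1 points for regions over 1 kb from a TSS). The differences below are weak alone minus weak shared peaks, in percentage points. The E-box difference excluded 0 with a score limit of 150 (−1.53) and a 400 bp window (−1.56), and was positive for any CANNTG (0.498, interval including 0). The GC difference excluded 0 where an overlap under 50% of the shorter peak counted as alone (−0.326) and with a 400 bp window (−0.312), and was positive with a score limit of 150 (0.187, interval including 0). Without the antibody 2 list only 72 weak peaks were shared, the E-box difference was −3.29 (interval −13.4 to 8.27), and the differences in GC content (0.124), TSS share (1.89), repeats (−0.557), gene share (5.70) and nearness to regions of several antibodies (−3.80) changed sign with intervals that included 0. Nearness also changed sign with a limit of 50 kb (−1.31, interval including 0) and where peaks within 1000 bp of another antibody were left out (−6.10), an alternative that removes near regions by construction. Assigning members to the nearest TSS of any gene type left 4008 coding genes with a member, against 6475. Otherwise the cause of these changes was not tested.

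No paired analysis was possible because each antibody has 1 library. Library depth was not used here, and absence of a region from the lists of antibodies 2 and 3 is not absence of binding. With 1 library an artifact of antibody 1 and binding at the same sites cannot be told apart, and no interval here includes differences between animals.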
